A study of Ostrinia furnacalis with 9 samples.

Results

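H3K9me3-only places are stretches of the genome that carried a called peak of this histone mark and, at no stage, a called peak of H3K27me3. The places were chosen by the presence or absence of listed peaks, and thus selected on the same calls that give their stage pattern. All peaks of 6 broad-peak lists that shared at least 1 bp were merged into places, the one sequence with an NC_ name was left out, and places with a non-diapause H3K9me3 peak and no H3K27me3 peak were kept. The rule found 558 such places, out of 10958 places in the whole series and out of 4422 places with a non-diapause H3K9me3 peak (12.6%, 95% interval 11.6–13.6). Of these, 141 had an H3K9me3 peak at all 3 stages and are called kept. The other 417 had no H3K9me3 peak at pre-diapause, at diapause or at both, and are called lost. They were 74.7% (70.9–78.3) of the set, while 57.6% of all places with a non-diapause H3K9me3 peak were lost in this sense. Lost means that no peak is listed, and the mark may still have been there below the authors' threshold.

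The lists come from chromatin immunoprecipitation sequencing of heads of Ostrinia furnacalis larvae, the Asian corn borer, a moth whose larvae can pass into diapause, a state of arrested development under hormonal control. The stock descended from field-collected larvae. It was held at 27 °C and a 16 h light, 8 h dark cycle, and no other rearing is given for non-diapause larvae. From the start of the fourth instar the other larvae were moved to 20 °C and a 12 h light, 12 h dark cycle, for 20 days (pre-diapause) or for 30 days or longer (diapause), so temperature, day length and time changed along with the state. No genotype, strain or sex is given, and the labels do not say whether heads were pooled. There was 1 list for each of 2 marks and 3 stages, so nothing below could be set against replicate error, and no test or p-value is given. Intervals are exact Clopper-Pearson 95% intervals, cover counting error only and treat places as independent.

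H3K9me3 is laid down by enzymes of the Su(var)3-9 and SETDB1 families, known from fly and mammals, and is read by HP1 proteins. It marks constitutive heterochromatin and silenced transposons. H3K27me3 is written by the Polycomb repressive complex and is best known from silenced developmental genes. The choice of places therefore left sites with the first mark called and the second never called. Genes could not be placed on the sequences of the lists, since 0 of 17154 genes in the gene table used here are assigned to one of them, and no genome sequence was used. The places are described by position, width, strength and stage.

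The H3K9me3 lists covered 2.93, 5.25 and 2.34 Mb in stage order. The non-diapause list had 4486 peaks, the pre-diapause list 7226, and the diapause list the fewest. The libraries' depth is unknown. The fold enrichment and −log10 q of each peak are the authors' values, on a scale of their own in each list, and are compared here within a list, as values or as percentiles. Folds of 1 place in several lists are given side by side without comparing them, and the lowest of them served only to choose places for naming. Where a place held more than 1 peak of a list, which 4 of the 558 did at non-diapause, the peak with the highest −log10 q stood for it. The places took in 562 peaks (12.5%) of the non-diapause H3K9me3 list, 309 (4.28%) of the pre-diapause list and 173 (4.94%) of the diapause list.

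Most H3K9me3-only places were not called through to diapause. The 141 kept places were 25.3% (21.7–29.1) of the 558, against 44.8% (43.2–46.4) of the 3864 places that also had a non-diapause H3K9me3 peak but met H3K27me3 at some stage. Over all 4422 places with a non-diapause H3K9me3 peak, 42.4% were kept. The largest class was called at non-diapause only, with 221 places or 39.6% (35.5–43.8). Among the places with both marks this class held 9.01% (8.12–9.95). A further 167 H3K9me3-only places (29.9%, 26.2–33.9) were called at non-diapause and pre-diapause, and 29 (5.20%, 3.51–7.38) at non-diapause and diapause. In the places with both marks these classes made up 43.1% (41.6–44.7) and 3.05% (2.53–3.65). The span of a place takes in its later peaks, so a place with later peaks had more room to meet H3K27me3 and leave the set. With each non-diapause H3K9me3 peak judged alone, 25.8% (22.3–29.6) of 573 peaks without H3K27me3 were kept. That share is not given for the peaks that met H3K27me3.

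**Figure D1:**
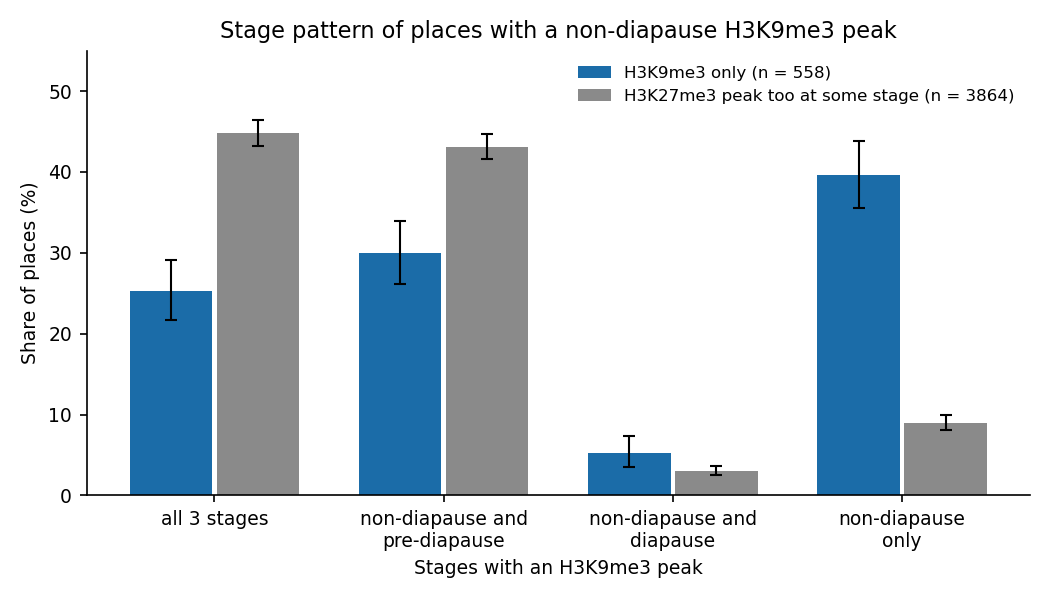
Share of places, in percent, by the stages at which an H3K9me3 peak was listed, for the 558 H3K9me3-only places (blue) and the 3864 places that also met H3K27me3 (grey). Bars start at 0 and whiskers are exact 95% binomial intervals; the non-diapause-only class is 39.6% of the blue set and 9.01% of the grey set.

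In the full lists the gap between the sets lay at pre-diapause more than at diapause. No pre-diapause peak was listed in 250 H3K9me3-only places, 44.8% (40.6–49.0), against 12.1% (11.1–13.1) of the places with both marks and 16.2% of all places with a non-diapause H3K9me3 peak. No diapause peak was listed in 388, or 69.5% (65.5–73.3), against 52.1% (50.5–53.7) of the places with both marks and 54.3% of all. Among H3K9me3-only places that had a pre-diapause peak, 141 of 308 (45.8%, 40.1–51.5) had a diapause peak as well, and in the places with both marks the share was 51.0% (49.3–52.7), so the intervals overlapped. Among those without a pre-diapause peak, 29 of 250 (11.6%, 7.91–16.2) had a diapause peak, against 25.3% (21.4–29.5) in the places with both marks. The pre-diapause list was the longest. With every list shortened to the length of the shortest one, 63.7% of the H3K9me3-only places had no pre-diapause peak and 67.4% no diapause peak. These shares are not given for the places with both marks, so the gap between the sets at equal list length is not known.

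The H3K9me3-only places were weak within the non-diapause list. Their fold ran from 1.31 to 4.91 with a median of 2.77, while in the places with both marks it reached 28.6 with a median of 3.54. None of the 558 lay in the highest 10% of the list by fold, which allows a share of up to 0.659% by the exact interval, and 1 lay in the highest 10% by −log10 q. In the highest 25% by fold there were 15 (2.69%, 1.51–4.39), against 28.6% (27.2–30.0) of the places with both marks. The single place in the highest 10% by −log10 q was the kept place NW_021130921.1 1579085–1579466, chosen for naming after its values were seen, whose −log10 q was 22.4, 27.1 and 19.7 at non-diapause, pre-diapause and diapause, with folds of 2.63, 2.63 and 2.21. So in this list every H3K9me3 peak among the highest 10% by fold, the NC_ sequence aside, lay in a place where H3K27me3 was also called at some stage.

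Kept places had a lower non-diapause fold than lost ones and wider peaks, at much the same −log10 q. The median fold was 2.26 in kept places (quartiles 1.76 and 2.92) and 2.85 in lost places (2.52 and 3.32), a ratio of 0.793. Median width was 486 bp in kept places (365 and 669) and 380 bp in lost places (323 and 529), a ratio of 1.28. The median −log10 q was 4.10 in kept places (3.11 and 5.35) and 3.78 in lost places (2.84 and 5.34), a difference of 0.32. The 3 lost classes had close medians of fold and width, with median folds of 2.82 in places lost at diapause alone, 2.71 in those lost at pre-diapause alone and 2.87 in those lost at both, and with median widths of 379, 380 and 380 bp. Presence at the later stages made these classes and depends on peak strength there, so the medians describe the classes and test nothing. Leaving out the places with a non-diapause fold under 2, an alternative chosen after the data were seen, brought the ratio of median folds to 0.967 and the kept share to 18.6%. The median folds were then 2.81 in kept and 2.91 in lost places, so little of the gap in median fold was left.

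The share kept was highest at the lowest folds and low above a fold of 2.5. Of the 84 H3K9me3-only places with a non-diapause fold under 2, 53 were kept (63.1%, 51.9–73.4). The kept share was 30.7% (21.9–40.7) at a fold of 2 to 2.5, 13.4% (8.67–19.4) at 2.5 to 3, 19.5% (12.6–28.0) at 3 to 3.5 and 13.6% (7.25–22.6) of the 88 places at 3.5 to 5. The places with both marks began alike, with 59.1% (50.7–67.0) kept under a fold of 2, and then stayed higher, with 42.0, 37.2, 38.3 and 44.5% in the same bands and 60.1% (56.0–64.1) at a fold of 5 and over, where no H3K9me3-only place lay. The high share kept under a fold of 2 was thus found in both sets, and the gap between them was seen from a fold of 2.5 to 5. In each of those 3 bands the intervals of the sets did not overlap. With every list shortened to the length of the shortest one, the kept share of the H3K9me3-only places was 65.4% under a fold of 2, 10.6% (5.75–17.4) at 3 to 3.5 and 5.96% (2.76–11.0) of 151 at 3.5 to 5. The H3K27me3 lists were shortened too, so the set of places changed, with 151 against 88 at 3.5 to 5. The values of the 2 upper bands thus moved with list length and with the set. Their intervals overlapped those from the full lists.

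**Figure D2:**
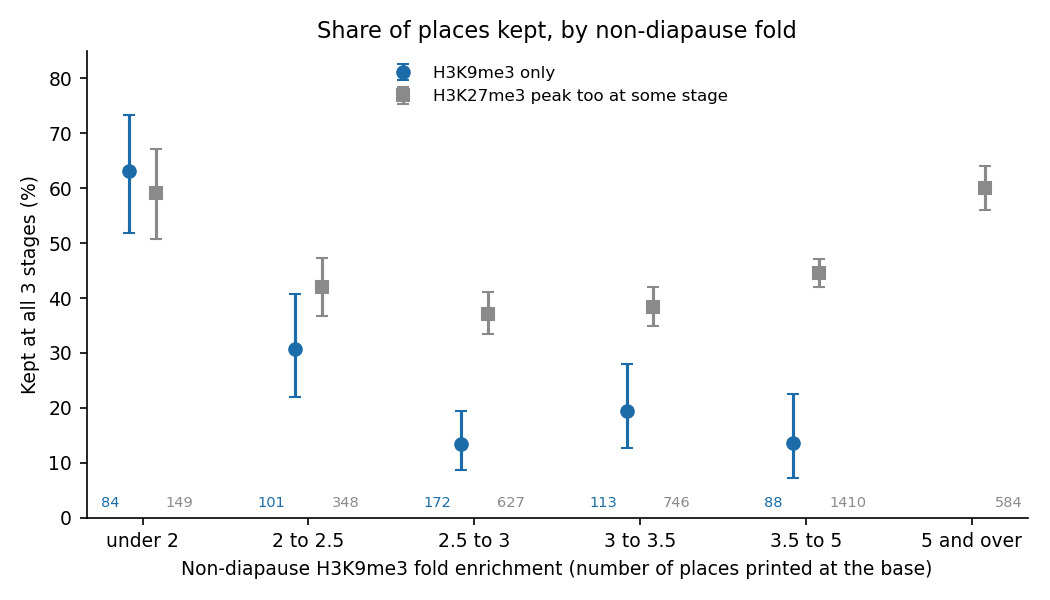
Share of places kept at all 3 stages, in percent, by band of the authors' non-diapause H3K9me3 fold, for H3K9me3-only places (blue circles) and places that also met H3K27me3 (grey squares). Whiskers are exact 95% binomial intervals and the number of places stands at the base; under a fold of 2 the shares are 63.1% and 59.1%, and at 3.5 to 5 they are 13.6% and 44.5%.

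By −log10 q the H3K9me3-only places showed no such gradient. From a −log10 q under 3 up to 8 and over, the shares kept were 19.4, 26.2, 29.8, 26.5 and 24.1%, and all 5 intervals overlapped. In the places with both marks the same bands gave 22.1, 29.9, 37.1, 41.9 and 57.5%. A stronger call at non-diapause thus went with a larger kept share where H3K27me3 was also called, while among H3K9me3-only places the 29 strongest, with a −log10 q of 8 and over, had an interval of 10.3–43.5%. By width, the share kept grew from band to band in the places with both marks, with 23.7, 35.9, 48.2, 58.2 and 70.0% from under 350 bp to 1000 bp and over. Of the H3K9me3-only places 15.6% (10.7–21.6) were kept at a width under 350 bp, 23.1% (17.3–29.9) at 350 to 500 bp and 37.3% (28.6–46.7) at 500 to 750 bp. The share was lower at 750 to 1000 bp, with 30.6% (18.3–45.4) of 49, and at 1000 bp and over it was 52.6% (28.9–75.6) of only 19 places.

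At equal −log10 q, kept places had lower folds than lost ones. In the band of −log10 q from 4 to 6 the median fold was 2.34 in 48 kept places and 3.28 in 113 lost places. From 6 to 8 it was 2.54 in 18 kept places and 3.85 in 50 lost places, and in all 5 bands the kept median was below the lost one. At a given fold, −log10 q is larger where more reads, background reads included, lie behind a peak. Within the non-diapause list the folds at a given −log10 q ended at a sharp upper limit, taken here as the highest fold of any peak of the list within 0.1 of that −log10 q. Kept places had a median fold of 68.3% of that limit (quartiles 52.3 and 88.4), and lost places 92.3% (78.7 and 98.8).

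Places with folds within 2% of the limit numbered 168 of the 558. They made up 14.9% (9.46–21.9) of kept places and 35.3% (30.7–40.1) of lost places. In the places called at non-diapause only the share was 37.6% (31.2–44.3), in those lost at diapause alone it was 35.3% (28.1–43.1), and in the 29 lost at pre-diapause alone it was 17.2% (5.85–35.8), close to that of the kept places. Of the 168, 21 were kept (12.5%, 7.91–18.5), against 49.1% (41.4–56.9) of the 169 places whose fold was under 75% of the limit. In the places with both marks these shares were 42.4% (39.8–45.1) and 54.8% (51.4–58.1). The part played by background reads in these shares was not tested, as the lists hold no read counts.

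**Figure D3:**
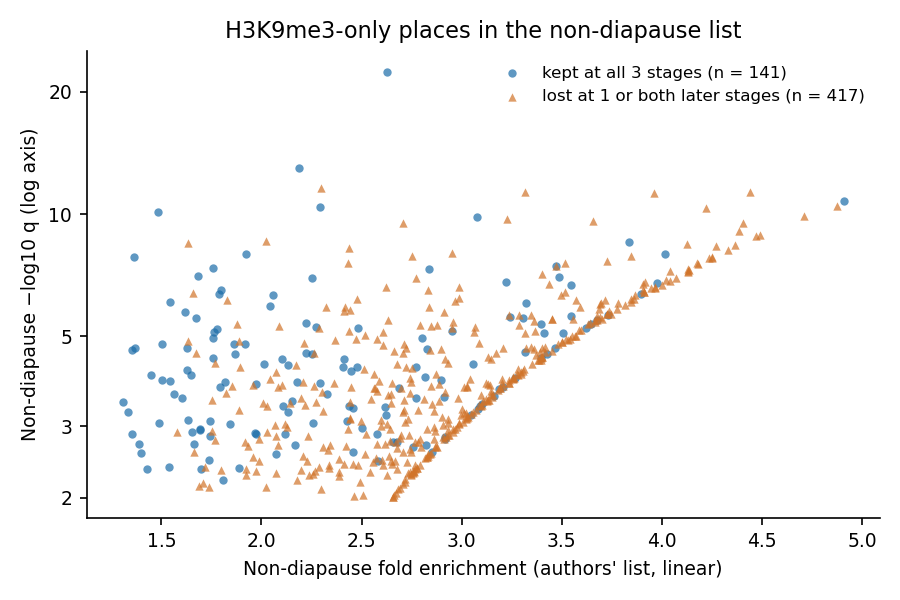
Each of the 558 H3K9me3-only places by its authors' non-diapause fold enrichment (linear axis) and −log10 q (log axis), kept places as blue circles and lost places as orange triangles. Many lost places line the lower right edge, the upper limit of fold at a given −log10 q, where 35.3% of lost and 14.9% of kept places lay, while kept places spread to folds under 2.

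Kept places stood higher in the later lists than in the non-diapause list, and so did lost places that had a later peak. Places lost at diapause alone had median percentiles by −log10 q of 24.1 at non-diapause and 40.6 at pre-diapause. Those lost at pre-diapause alone had 22.1 at non-diapause and 33.9 at diapause. In kept places the median percentile was 22.9 in the non-diapause list, 58.4 in the pre-diapause list and 45.4 in the diapause list. The highest of the 3 percentiles was at pre-diapause in 89 of the 141, at diapause in 41 and at non-diapause in 11. The last of these counts is 7.80% (3.96–13.5), against 18.3% (16.5–20.2) of the kept places with both marks, whose median percentiles were 66.4, 77.0 and 64.3. By fold the median percentiles of the 141 places were 10.4, 25.7 and 32.2, so by this measure too they were lowest at non-diapause. The highest percentile by fold was at diapause in 91 of the 141, at pre-diapause in 47 and at non-diapause in 3. Fold and −log10 q thus differed in which later list ranked these places highest. The lists differ in length and in how weak their last peaks are, so a percentile gives a rank in a list and not an amount of the mark.

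Peaks of kept places were widest at pre-diapause. In stage order the median width was 486, 733 and 572 bp, against 496, 537 and 522 bp in the whole lists. The pre-diapause peak was wider than the non-diapause peak in 124 of the 141 places (87.9%, 81.4–92.8), with a median width ratio of 1.38, and in kept places with both marks in 71.1% (68.9–73.3), with a median ratio of 1.09. The diapause peak was wider than the non-diapause peak in 97 of the 141 (68.8%, 60.4–76.3), against 40.8% (38.4–43.1) of kept places with both marks. Places called at non-diapause and pre-diapause only had a median width ratio of 1.18. In 137 of the 141 kept places the 3 peaks shared a common stretch, of 98 to 1482 bp with a median of 394 bp, which took up a median of 92.5% of the non-diapause peak. In the other 4 the peaks were joined without a stretch common to all 3.

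**Figure D4:**
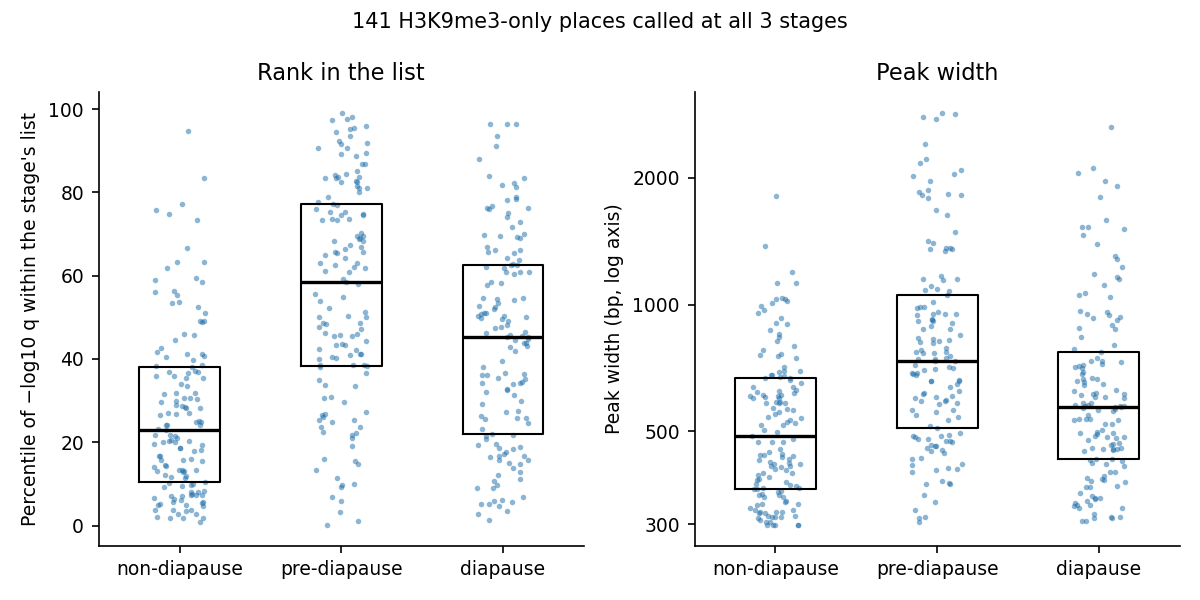
The 141 kept places at the 3 stages in order, by percentile of −log10 q within the stage's H3K9me3 list (left) and by peak width in bp on a log axis (right). Points are places, boxes span the quartiles and the thick line is the median, at percentiles of 22.9, 58.4 and 45.4 and widths of 486, 733 and 572 bp.

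The order of the kept places by fold was much the same in all 3 lists. Across the 141 places Spearman's rho of fold was 0.843 between non-diapause and pre-diapause, 0.852 between non-diapause and diapause and 0.770 between pre-diapause and diapause. For −log10 q it was 0.332, 0.296 and 0.468. In the 1732 kept places with both marks, rho of fold for the same pairs of stages was 0.809, 0.466 and 0.367, and that of −log10 q was 0.755, 0.514 and 0.464. The order by fold was thus much alike in both sets between non-diapause and pre-diapause. For the 2 pairs with diapause it was more alike in the H3K9me3-only places. The order by −log10 q was less alike across stages in the H3K9me3-only places for the 2 pairs with non-diapause. Their non-diapause −log10 q also spanned less, with quartiles of 3.11 and 5.35, against 5.54 and 13.8 in kept places with both marks. The part of this narrower range in rho was not tested. The values of rho are correlations across places, from 1 list per stage. The lists share the sequence at each place, and the values are given as a description.

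The kept place with the highest minimum fold was NW_021137759.1 123973–124363. Its folds were 4.91, 3.98 and 4.19 at non-diapause, pre-diapause and diapause, and its peaks were 349, 312 and 332 bp wide. NW_021133254.1 323577–323924 followed with 4.02, 4.22 and 3.65, and NW_021134383.1 343839–344226 with 3.896, 4.47 and 3.51. Both were narrow, with every peak between 335 and 379 bp. NW_021133360.1 51987–52562 had folds of 3.68, 3.41 and 3.49. At NW_021133786.1 203725–204613 folds were 3.40, 6.29 and 3.42, at the 49.7, 93.8 and 80.4 percentiles of the lists by fold, so the place ranked lowest at non-diapause. NW_021131163.1 266535–266970 ranked highest in the diapause list, with folds of 3.40, 3.70 and 4.46 and percentiles by −log10 q of 27.1, 38.4 and 81.4. These 6 places lay between 4728 and 110748 bp from the nearest H3K27me3 peak.

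The low-fold end of the kept places looked different. The 3 with the smallest lowest fold, chosen for naming after their values were seen, were NW_021137686.1 39316–40273 (folds 1.31, 1.53 and 1.37), NW_021132848.1 537534–538230 (1.34, 1.54 and 1.41) and NW_021131648.1 325392–326752 (1.35, 2.27 and 1.43). The last of them had a −log10 q of 2.87, 37.0 and 5.55 in stage order, which placed it at the 7.02, 98.0 and 52.0 percentiles of the lists. Its peak was 384, 1361 and 1163 bp wide. The widest kept places had folds below the kept median of each list, except the widest at diapause, where its 2.23 was just above the median of 2.21. NW_021135711.1 22102–25011 spanned 2910 bp with folds of 1.65, 2.18 and 2.23, NW_021131545.1 123537–126396 spanned 2860 bp with 1.43, 1.64 and 1.56, and NW_021137730.1 136–2973 spanned 2838 bp with 1.74, 2.08 and 2.0. In the first of these the pre-diapause peak was 2024 bp wide, against 560 bp at non-diapause and 670 bp at diapause.

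The strongest lost places had non-diapause folds close to that of the strongest kept place. Among places called at non-diapause only, the highest folds were 4.71 at NW_021137767.1 66149–66511, 4.49 at NW_021131107.1 68945–69315, 4.44 at NW_021131102.1 44070–44382 and 4.41 at NW_021133386.1 145007–145444. Their −log10 q was 9.86, 8.88, 11.3 and 9.52, at the 68.9 to 79.1 percentiles of the list, and none had a peak of either mark at a later stage. Loss at both later stages was therefore not limited to the weakest calls.

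Among places lost at diapause alone, NW_021133077.1 375663–376019 had folds of 4.87 at non-diapause and 4.78 at pre-diapause. NW_021135445.1 91701–92031 had 4.47 and 3.72, NW_021131670.1 235783–236216 had 4.33 and 5.01, and NW_021135526.1 128714–129192 had 4.25 and 5.26. The widest place lost at diapause, named after its values were seen, was NW_021130448.1 16127–21661. A single pre-diapause peak of 5535 bp with a fold of 3.28 spanned it. It held 2 non-diapause peaks, and the one of higher −log10 q was 1598 bp wide with a fold of 3.09. The nearest H3K27me3 peak was 193107 bp away. Among the 29 places lost at pre-diapause alone, NW_021136840.1 861–1225 had folds of 4.36 at non-diapause and 4.50 at diapause, and no H3K27me3 peak lay on its sequence. NW_021132730.1 284755–285146 had 3.92 and 3.18, NW_021135427.1 283003–283397 had 3.68 and 2.66, and NW_021136004.1 229474–229869 had 3.57 and 3.26.

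Lost places seldom had a shifted peak nearby. An H3K9me3 peak lay within 1 kb, at a stage where the place was lost, in 22 of the 417 (5.28%, 3.33–7.88). Median distances cover only places with such a peak on their sequence. For places called at non-diapause only, the median distance to the nearest pre-diapause H3K9me3 peak was 21.5 kb (214 places) and to the nearest diapause peak 44.2 kb (201 places). For places lost at diapause alone, the nearest diapause peak was a median of 33.7 kb away (149 places), and 5 of all 167 had one within 1 kb. Distances to a list grow as the list gets shorter, and the diapause list was the shortest.

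Kept and lost places lay about equally far from H3K27me3 peaks. The median distance to the nearest H3K27me3 peak of any stage was 16.7 kb in 133 kept places (quartiles 5.89 and 40.3 kb) and 20.8 kb in 401 lost places (7.21 and 48.0 kb). No H3K27me3 peak lay on the sequence of the other 8 kept and 16 lost places. Within 10 kb of an H3K27me3 peak were 32.6% (24.97–41.0) of kept and 32.1% (27.7–36.8) of lost places. The median distance was 20.1 kb over the 534 of all 558 places with an H3K27me3 peak on their sequence. It was 19.2 kb in 2647 of the 2877 other H3K9me3-only places, which had no non-diapause peak. No H3K27me3 peak lay on the sequence of 4.30% of the 558 and 7.99% of those others. Within 1 kb lay 22 (3.94%, 2.49–5.91) of the 558 and 2.29% (1.78–2.91) of those others.

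**Figure D5:**
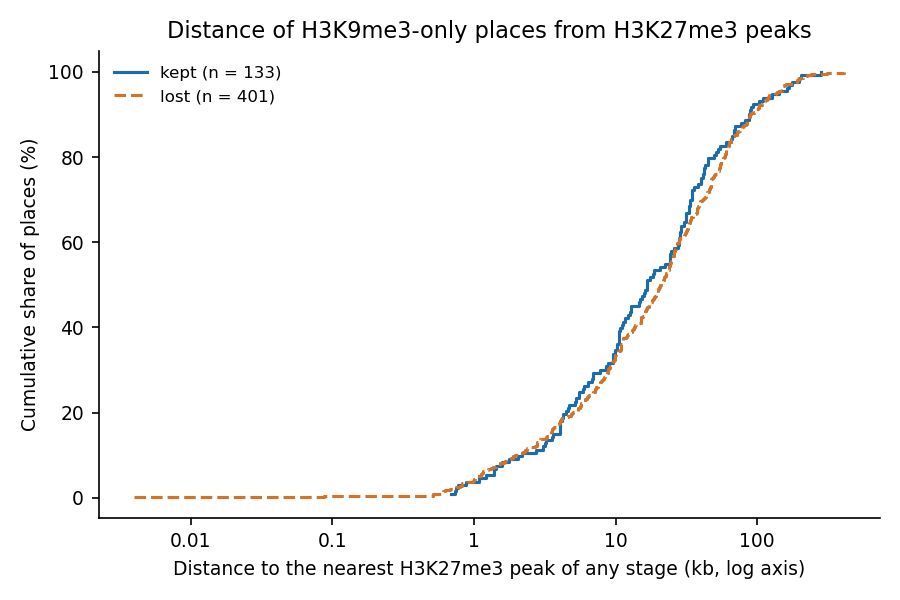
Cumulative share of H3K9me3-only places, in percent, by distance to the nearest H3K27me3 peak of any stage in kb on a log axis, for kept (blue solid line) and lost places (orange dashed line) with such a peak on their sequence. The lines run close together, with medians of 16.7 and 20.8 kb.

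A few places sat close to the edge of the rule. NW_021131411.1 2084386–2085246, called at non-diapause only with a fold of 2.86, lay 4 bp from a pre-diapause H3K27me3 peak. NW_021137697.1 497195–497989 lay 88 bp and NW_021135154.1 146–830 lay 513 bp from the nearest H3K27me3 peak, and both were called at non-diapause only. Just outside the rule, the smallest stretch shared between a peak of each mark was 19 bp, at NW_021133671.1 91765–93549, followed by 104 bp at NW_021131364.1 219918–221383 and 132 bp at NW_021132286.1 1187666–1188346. Their non-diapause H3K9me3 folds were 2.46, 2.64 and 3.05. By strength, the weakest member had a −log10 q of 2.01, which was the smallest of the non-diapause list, and weaker peaks are not listed. In 49 of the 141 kept places at least 1 of the 3 calls had a −log10 q under 3.

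The places were scattered over the assembly. They lay on 391 of the 1418 sequences with any place, 273 of these sequences held 1, and 11 held 4 or more. Kept places lay on 120 sequences, and 49 sequences held both kept and lost ones. NW_021130635.1 had the most, 7 of its 28 places, of which 2 were kept. NW_021131648.1, NW_021137587.1 and NW_021137793.1 had 5 each, of which 3, 1 and 2 were kept. The remaining sequences with 4 were NW_021130558.1 (2 kept), NW_021130949.1 (1), NW_021132042.1 (0), NW_021132152.1 (3), NW_021132596.1 (1), NW_021134644.1 (0) and NW_021135425.1 (0). On NW_021134644.1 all 4 places were lost, and they made up 4 of its 6 places.

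The few close neighbours mostly had the same stage pattern. Within 10 kb of another H3K9me3-only place were 15 of the 141 kept places (10.6%, 6.08–16.9) and 18 of the 417 lost places (4.32%, 2.58–6.74). These formed 17 neighbouring pairs, of which 7 joined 2 kept places, 8 joined 2 lost places and 2 joined 1 of each. The stage pattern was the same in 13 pairs. No such count is given for pairs further apart or for places with both marks, so there is no share to set it against. Some of the kept pairs share a place. On NW_021135007.1, 3 kept places lay in a row at 30907–33661, 34293–35124 and 37227–39581, with folds of 2.13, 1.74 and 1.68 at non-diapause, 2.20, 2.21 and 2.103 at pre-diapause and 2.05, 1.94 and 1.75 at diapause. On NW_021130882.1 the kept places 357559–358726 and 359396–360473 were 669 bp apart, with non-diapause folds of 1.504 and 1.40. On NW_021131648.1 the places 323448–324392 and 325392–326752 were 999 bp apart, with pre-diapause −log10 q of 25.7 and 37.0. On NW_021130635.1 the kept places 455069–456020 and 457882–459029 were 1861 bp apart, while the 5 others of that sequence were lost and had non-diapause folds of 2.63 to 2.93. Whether such neighbours are parts of 1 marked stretch was not tested, and they cannot be counted as independent places.

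Few places lay at the start of a sequence. A start within 1 kb of the first base of its sequence was found in 9 kept places (6.38%, 2.96–11.8) and 10 lost places (2.40%, 1.16–4.37), and in 2.48% (2.02–3.03) of the places with both marks. The intervals of kept and lost places overlapped. Lengths of the sequences were not used, so ends could not be examined.

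The 25.3% kept among H3K9me3-only places can be set beside the places left out of the set because of H3K27me3, divided by the stages of that mark. Where H3K27me3 was called at all 3 stages, 63.6% (61.3–65.7) of 1896 places kept H3K9me3 at all 3. Where it was called at non-diapause alone the share was 13.1% (6.72–22.2) of 84, at pre-diapause alone 24.9% (21.3–28.7) of 559, and at diapause alone 34.1% (24.3–45.0) of 88. For H3K27me3 at a pair of stages it was 21.7% (19.1–24.6) of 888 at non-diapause and pre-diapause, 18.2% (6.98–35.5) of 33 at non-diapause and diapause, and 46.8% (41.2–52.5) of 316 at pre-diapause and diapause. The 25.3% of the H3K9me3-only places thus lay above 4 of these 7 classes and below the other 3. Its interval (21.7–29.1) lay apart only from those for H3K27me3 at pre-diapause and diapause and at all 3 stages, which were higher. It overlapped the intervals of the other classes, so the order among them is not settled. The 44.8% over all places with both marks was not shared by each class. The 1896 places with H3K27me3 throughout were 49.1% of the places with both marks. The median non-diapause H3K9me3 fold was 2.77 in the H3K9me3-only places, 2.92 to 3.44 in the 6 classes with H3K27me3 at 1 or 2 stages and 3.95 in places with it throughout. The part of peak strength in these differences was not tested beyond the bands of fold, −log10 q and width given above.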

How the data were processed

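Per the submitters' processing notes, Bowtie2, Picard, MACS2, ChIPseeker and deepTools were used, with no version or setting given. The genome build, use of the 3 inputs and pooling are not given in the sources used here. The 6 deposited lists, 1 per immunoprecipitated sample, have 9 columns and no header and were read as MACS2 broad peaks. They give the authors' fold (a ratio to background averaged over the peak), the deposited −log10 p and −log10 q, and a deposited score derived from −log10 q. The lists carry no depth. The inputs were not used.

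Positions are written 1-based. Peaks sharing at least 1 bp were merged; places were classed by the lists present. Distances count the bases between a place and the nearest peak. The places, bands and lists described were chosen with earlier results of these data known. Places were named by rule: the 6 kept places of highest lowest fold, the 4 of highest non-diapause fold per lost class, the 3 widest kept, the 3 nearest either side of the overlap rule, and sequences with at least 4. Of the sequences with at least 4, places were listed only where neighbours were described. Merging was tested on simulated places set well apart, and distances on a few cases written by hand. Python 3.11.15, numpy 2.4.6, pandas 2.3.3, scipy 1.17.1 and matplotlib 3.10.9 were used. Alternatives changed the merging gap (500 bp), the least −log10 q (3), list length (all as short as the shortest), the unit judged, the overlap needed (50%) and the NC_ sequence; leaving out sequence starts or folds under 2 was added after the data were seen.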

Additional observations from a re-analysis of the deposited data

How the results depend on the processing

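Of 87 recomputed values, 73 stayed within the counting interval of the reported value, and 14 moved beyond it. For the number of places the bound was 1.5 times. None changed direction, but with folds under 2 left out the ratio of median fold came close to 1. Keeping the NC_ sequence changed none of the values, the bands of fold included, so its part of the 73 shows no stability. With every list shortened to the length of the shortest one, 18.7% of the places were kept, 63.7% had no pre-diapause peak, the ratio of median fold, kept over lost, was 0.662, the median distance to H3K27me3 was 26020 bp, 2.39% lay within 1 kb of it, 2.14% of lost places had an H3K9me3 peak within 1 kb, and 2.17% lay within 10 kb of another such place. That last share was 3.896% with −log10 q of at least 3. With an overlap of 50% needed to be kept, 10.98% of lost peaks had a neighbour within 1 kb, which includes partners that overlap by less. With folds under 2 left out, a setting chosen after the data were seen, 18.6% were kept, 50.2% had no pre-diapause and 75.7% no diapause peak, the ratio of median fold was 0.967 and 3.797% lay within 10 kb of another. The cause of these moves was not tested, except that shorter lists leave fewer partners. The highest kept share stayed at folds under 2 in all 6 of the first alternatives named under processing, at 58.7 to 67.3%. With lists of equal length, which also changed the set of places, the share was 10.6% at a fold of 3 to 3.5, against 19.5% as reported. At 3.5 to 5 it was 5.96%, against 13.6%. In both bands the intervals overlapped. No paired analysis was possible because each mark and stage has 1 list, and for the same reason no library could be left out. Depth is unknown, so what it limits cannot be given.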
